A study of Mus musculus with 8 samples.

Results

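Interferon-stimulated genes are the genes that cells switch on after an interferon has bound its receptor. They were followed here in single-nucleus RNA-seq of 8 mouse livers. The set was a list of 39 gene symbols of the mouse interferon response, and 37 of them were found by symbol among the 32285 genes of the count tables. Mx1 and Mx2 were listed but not matched, and they are not analysed here. The mice were male DIAMOND mice, crosses of 129A1/SvIm and C57BL/6J, and 1 library was made from snap-frozen liver of each. In the WD tumour group (n = 3) the mice ate a Western diet, high in fat with fructose and glucose in the water, for 48 weeks and had hepatocellular carcinoma. The Western diet was replaced by chow after 36 weeks in 2 further groups, called RD tumour (n = 2) and RD no tumour (n = 3). The former had hepatocellular carcinoma. The RD no tumour mice had none that was detected and are also called tumour-free here. Every group had thus been on Western diet, so none is a lean control. The labels put the end of the study at 48 weeks of age, which cannot be joined with diets begun at 2 months of age and lasting 48 weeks, and age is not used further. They also do not say whether a tumour was part of the sampled piece.

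Type I interferons (the alpha family, beta and relatives) and type III interferons signal through the kinases Jak1 and Tyk2 to a complex that holds Stat2 and Irf9 and binds a DNA element called the interferon-stimulated response element (ISRE). Interferon gamma, made mainly by T and natural killer cells, signals through Jak1 and Jak2 and acts on genes through another element, the gamma-activated sequence (GAS). The gene products sense foreign nucleic acid (Ifih1, Dhx58, Zbp1, Eif2ak2), block translation or degrade RNA (the Ifit and Oas families), tag proteins (Isg15) or damage the vacuoles of intracellular microbes (the guanylate-binding and immunity-related GTPases). In liver, hepatocytes as well as sinusoidal endothelial cells, macrophages and stellate cells can respond to interferon.

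The promoter sequences were searched for the letters of both elements, ISRE and GAS. RefSeq promoter sequences of build GRCm38.p6, 250 bases before to 50 after the start of transcription, were at hand for 30 of the 37 genes and not for Dhx58, Zbp1, Oas2, Usp18, Parp9, Parp14 and Rtp4. The core letters of the ISRE, GAAA and GAAA parted by any 2 bases, on either strand, occurred in 17 of the 30 genes (56.7%) and in 3.44% of all 32851 promoters of that length. GAS letters, TTCNNNGAA, occurred in 6 of the 30 (20%) and in 8.30% of all promoters. The units differ: a gene of the list counted if any of its entries matched (34 entries for the 30 genes). The share of all promoters was counted by entry. A match is a description of the letters and not a measured binding site. The windows printed here hold ISRE matches of genes from different role groups whose levels are described further on. Each is read 5′ to 3′ along its gene's own strand, with the match in capitals. TTTC and TTTC parted by 2 bases is the same core read from the opposite strand.

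Isg15, chr4:156200861-156200910, minus strand: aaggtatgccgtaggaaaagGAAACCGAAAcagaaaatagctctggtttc
Ifit1, chr19:34640784-34640833, plus strand: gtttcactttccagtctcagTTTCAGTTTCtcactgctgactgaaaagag
Ifit3, chr19:34583387-34583436, plus strand: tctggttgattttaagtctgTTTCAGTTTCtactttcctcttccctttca
Oas3, chr5:120777705-120777754, minus strand: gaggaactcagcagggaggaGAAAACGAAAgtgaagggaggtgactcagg
Gbp7, chr3:142530263-142530312, plus strand: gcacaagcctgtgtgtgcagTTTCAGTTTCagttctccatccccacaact
Stat2, chr10:128270256-128270305, plus strand: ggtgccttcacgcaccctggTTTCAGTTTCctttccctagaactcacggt
Bst2, chr8:71537567-71537616, minus strand: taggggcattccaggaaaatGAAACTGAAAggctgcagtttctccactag
Rsad2, chr12:26456543-26456592, minus strand: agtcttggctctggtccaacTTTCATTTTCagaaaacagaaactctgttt
Trim30a, chr7:104465200-104465249, minus strand: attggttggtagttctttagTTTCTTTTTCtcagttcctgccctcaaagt

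In these windows the match lay between 36 bases (Trim30a) and 222 bases (Stat2) before the start of transcription. Isg15 held 3 matches in its promoter, and Ifit1, Ifit3, Ifit3b, Irgm1, Oas1a and Bst2 held 2 each in 1 promoter, while Gbp3 and Trim30a held 2 over 2 promoter entries. The matches of Ifit3b lay in windows with the same letters as those of Ifit3, its neighbour on chromosome 19. Both genes are near-identical copies, so reads can be shared or lost between them and their separate levels are uncertain. Gbp7 held 2 GAS matches beside its ISRE. Epsti1, Oasl2, Ifi44, Irf7 and Herc6 had a promoter in the table without the ISRE letters, which says only that the letters are not in this window.

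Depth differed less between the mice than the nature of the libraries did. After keeping barcodes with at least 300 detected genes, each mouse had 6048 to 20000 nuclei and 17948627 to 34363108 unique molecular identifiers (UMIs, each standing for 1 captured RNA molecule), and the median nucleus held 1120 to 2656 UMIs. The median mitochondrial share was 7.91% in WD tumour 1 and 7.51% in WD tumour 3, and 1.30% to 3.28% in the other mice. RD tumour 1 stood apart. It had exactly 20000 barcodes, 14098 of its nuclei fell in no cell class, and its cell classes were the least distinct (endothelial markers were 3.06 log2 units above its own hepatocyte class, against 4.84 to 5.51 in the other 7 mice). It also had the highest level of 8 mice for 30.9% of all genes counted. Summed macrophage markers were 1306 CPM (counts scaled to the same total in each mouse) in RD no tumour 1, 2494 in RD tumour 1 and 1396 in WD tumour 2. The remaining mice had 450 to 777 CPM. For neutrophil markers, RD tumour 1 had 2282 CPM, RD no tumour 1 had 640 CPM and the others 28.8 to 168. Of 79446 kept barcodes, 748 were seen in more than 1 library, 8 to 62 for each pair of libraries. Counts of genes higher than in hepatocyte nuclei and several medians of comparisons with the RD tumour group are given with and without RD tumour 1. The same holds for differences of Oasl1, Usp18 and Epsti1. Most other values of single genes include this mouse.

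Nuclei were placed in cell classes by marker genes, none of which is in the interferon list. The classes held 32041 hepatocyte, 6252 endothelial, 4571 stellate, 4566 macrophage, 1251 T or natural killer (T/NK), 922 cholangiocyte and 397 B cell nuclei. The 37 genes together made up 782 ± 184 CPM of hepatocyte nuclei and 821 ± 221 CPM of cholangiocyte nuclei (SD, n = 8 mice). They made up 1411 ± 570 CPM of endothelial, 1419 ± 337 CPM of T/NK, 1426 ± 603 CPM of stellate and 1825 ± 581 CPM of macrophage nuclei (SD, n = 8). The endothelial, T/NK and stellate levels differed by far less than their spread over mice. Because hepatocyte nuclei were so many, they still held 36.8% of the UMIs of the 37 genes on average, with a range of 21.6% to 50.1% over mice, against 9.79% for macrophage and 8.05% for endothelial nuclei. In the plot of the summed level by class and mouse, RD no tumour 1 is the highest point in the endothelial, stellate, T/NK, macrophage and cholangiocyte classes.

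**Figure D1:**
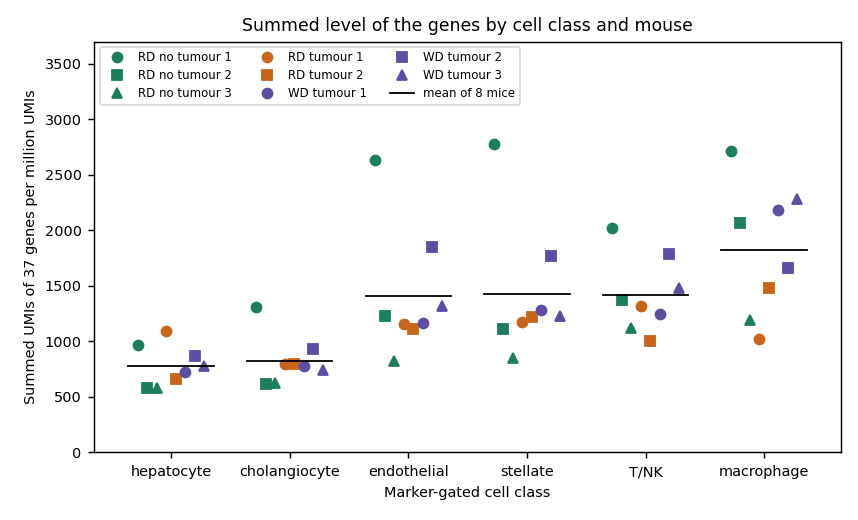
Summed CPM of the 37 genes (vertical axis) in 6 marker-gated cell classes (horizontal axis), 1 point for each mouse, coloured by group, with a line at the mean of 8 mice. RD no tumour 1 reaches 2632 in endothelial, 2779 in stellate and 2712 in macrophage nuclei, above every other mouse, while RD tumour 1 is the highest in hepatocyte nuclei with 1095.

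Gene by gene, most of the tested genes of the list were higher in endothelial, macrophage and stellate nuclei than in hepatocyte nuclei of the same mice. In edgeR's quasi-likelihood test with the mouse as a block, 25 of 35 tested genes were higher in endothelial nuclei and 2 were lower at an adjusted p under 0.05, while 30.2% of all 13794 genes tested were higher and 31.8% lower. In macrophage nuclei 24 of 34 were higher and 1 lower (26.4% and 31.1% of all genes), and in stellate nuclei 23 of 35 were higher and 1 lower (27.2% and 29.6%). T/NK nuclei had 14 of 32 higher and 1 lower (15.9% and 19.6%), and cholangiocyte nuclei had 4 of 33 higher and 4 lower (12.8% and 18.7%). The median gene of the list differed from hepatocytes by 0.91 log2 units in endothelial, 1.05 in macrophage, 1.03 in stellate, 0.55 in T/NK and -0.11 in cholangiocyte nuclei, where the median of all genes lay between -0.10 and -0.02. Without RD tumour 1 the counts of higher genes were 25 of 35 (endothelial), 24 of 36 (macrophage), 26 of 36 (stellate), 15 of 33 (T/NK) and 5 of 33 (cholangiocyte). This class comparison was added after the data had been seen, and genes too low for the filter in a class are left out of its counts.

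**Figure D2:**
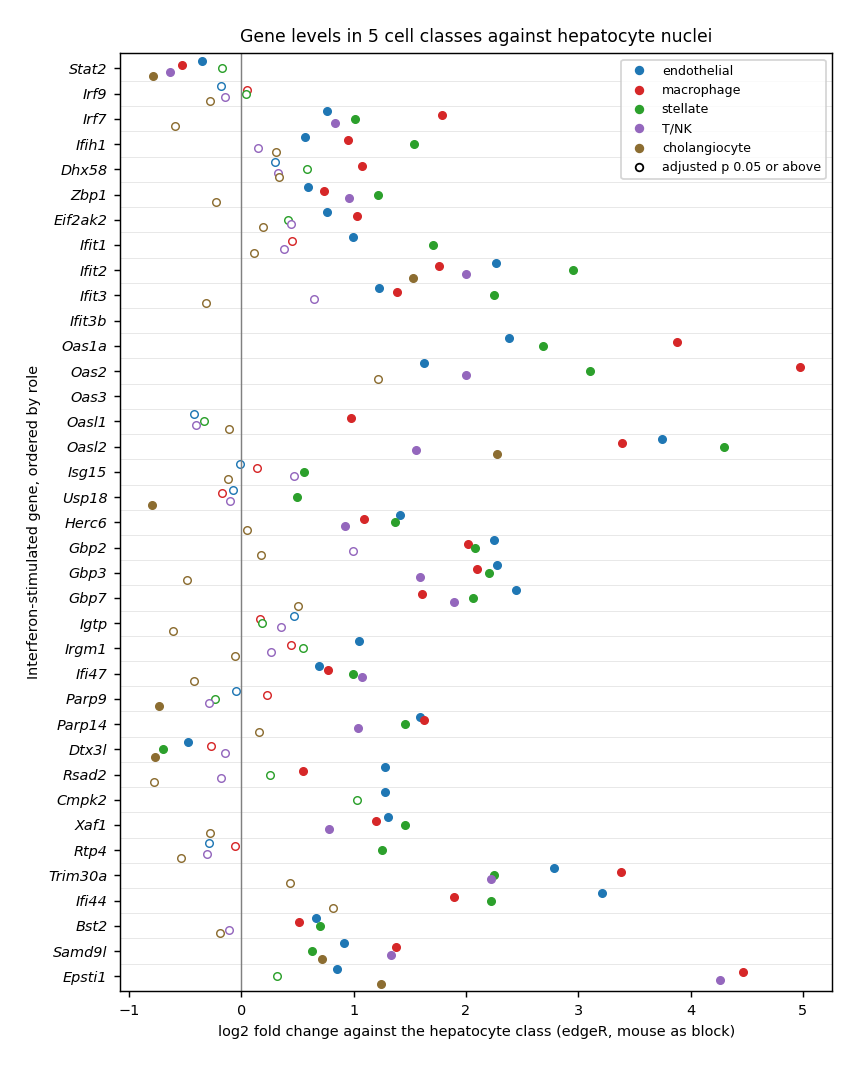
Log2 fold change of each gene against the hepatocyte class (horizontal axis) in 5 cell classes (colours), from edgeR with the mouse as a block; filled points have an adjusted p under 0.05 and open points do not. Ifit3b and Oas3 did not pass the count filter in these fits, and Oas2, Epsti1, Oasl2 and Oas1a reach farthest to the right, while Stat2, Irf9, Parp9 and Dtx3l lie near or below 0.

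The transcription factors of the interferon signal differed among themselves. Stat2, a transcription factor of the type I signal, was the only gene of the list with its highest class mean in hepatocyte nuclei, at 138 ± 28.8 CPM (SD, n = 8) against 117 ± 41.5 in endothelial, 107 ± 37.7 in macrophage and 131 ± 49.4 in stellate nuclei. It was lower than in hepatocytes in endothelial (-0.35 log2, adjusted p = 0.034), macrophage (-0.53, adjusted p = 0.0082), T/NK (-0.64, adjusted p = 0.026) and cholangiocyte nuclei (-0.79, adjusted p = 1.2e-04; edgeR). Irf9, the DNA-binding member of that complex, passed the threshold in none of these 5 comparisons, and it overlaps Rnf31 on the same strand, so part of its reads may belong to that gene. Irf7, which is itself induced by interferon and drives interferon alpha genes, was 1.79 log2 units higher in macrophage nuclei (SE 0.17, adjusted p = 3.7e-05, edgeR), with 39 ± 22.9 CPM there and 10.5 ± 5.93 in hepatocyte nuclei (SD, n = 8). It was also higher in stellate (1.01, adjusted p = 3.9e-04), T/NK (0.84, adjusted p = 0.025) and endothelial nuclei (0.76, adjusted p = 0.0012; edgeR).

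Each sensor gene was higher than in hepatocyte nuclei in at least 1 class. Ifih1, which encodes the RNA sensor MDA5, was highest in stellate nuclei. There it had 136, 73.6 and 65.7 CPM in the tumour-free mice, 74.0 and 88.8 in the RD tumour mice, and 102, 107 and 89.6 in the WD tumour mice, while hepatocyte nuclei ranged from 19.3 to 49.5 CPM. The ranges of both classes do not overlap, and stellate nuclei were higher than hepatocyte nuclei by 1.54 log2 units (SE 0.16, adjusted p = 1.9e-05) and higher than endothelial nuclei by 0.98 (SE 0.10, adjusted p = 5.5e-06; both edgeR). Dhx58 (1.07 log2), Zbp1 (0.73) and Eif2ak2 (1.03), which encode the RNA helicase LGP2, a sensor of Z-form nucleic acid and the RNA-activated kinase PKR, were also higher in macrophage than in hepatocyte nuclei.

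Among the Ifit genes, whose proteins bind foreign RNA, stellate nuclei had the highest means. Ifit2 was 2.95 log2 units above hepatocyte nuclei there (SE 0.50, adjusted p = 4.6e-04) and Ifit3 was 2.25 units above (SE 0.43, adjusted p = 9.2e-04; edgeR). Ifit3 in stellate nuclei was 78.6, 14 and 10.1 CPM in the tumour-free mice, 9.24 and 11.8 in the RD tumour mice, and 12, 13.6 and 18.6 in the WD tumour mice. RD no tumour 1 was therefore far above the other 7 mice, which lay within 9.24 to 18.6.

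The Oas family, which makes the messenger that activates the RNA-cutting enzyme RNase L, split between cell classes. Oas2 was highest in macrophage nuclei, which had 131, 80.6 and 30.6 CPM in the tumour-free mice, 70.7 in RD tumour 2, and 73.7, 68.2 and 104 in the WD tumour mice, but no UMI in RD tumour 1. Hepatocyte nuclei had 0.42 to 5.28 CPM, and the class difference was 4.97 log2 units (SE 0.55, adjusted p = 5.6e-05, edgeR). Oas1a differed in the same direction by 3.88 units (SE 0.37, adjusted p = 3.5e-05, edgeR). Oasl2 was instead highest in stellate nuclei, with 173, 47.1 and 29.3 CPM in the tumour-free mice, 16.6 and 53.4 in the RD tumour mice, and 53.1, 111 and 63.8 in the WD tumour mice against 0.86 to 6.87 CPM in hepatocyte nuclei. This difference of 4.3 log2 units (SE 0.35, adjusted p = 6.5e-06) was followed by endothelial nuclei at 3.74 units (SE 0.40, adjusted p = 2.4e-05; edgeR), and stellate nuclei were above endothelial nuclei by 0.54 units (SE 0.10, adjusted p = 8.9e-04, edgeR).

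In the Isg15 pathway, Herc6, which encodes the mouse ligase that attaches Isg15 to proteins, was higher in endothelial (1.41 log2, adjusted p = 8.1e-05), stellate (1.36, adjusted p = 1.5e-04), macrophage (1.09, adjusted p = 0.0051) and T/NK nuclei (0.92, adjusted p = 0.0013; edgeR). Isg15 itself was 8.95 ± 4.87 CPM in hepatocyte and 14.3 ± 13.8 CPM in stellate nuclei (SD, n = 8), a difference of 0.56 log2 units that just passed (adjusted p = 0.049, edgeR). Usp18, which removes Isg15 and blocks the type I receptor, was 0.49 units higher in stellate nuclei (adjusted p = 0.017, edgeR). Neither Isg15 nor Usp18 passed the threshold in endothelial, macrophage or T/NK nuclei.

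The GTPases that respond mainly to interferon gamma were led by endothelial nuclei. Gbp7 had 213, 57.2 and 24.1 CPM there in the tumour-free mice, 54.3 and 37.6 in the RD tumour mice, and 46.3, 130 and 55.1 in the WD tumour mice, with 3.71 to 40.02 CPM in hepatocyte nuclei. The endothelial difference was 2.44 log2 units (SE 0.37, adjusted p = 1.8e-04, edgeR), and Gbp7 was also lower in macrophage than in endothelial nuclei by 0.92 units on the log2 scale (adjusted p = 0.0078, edgeR). Gbp2 (2.25) and Gbp3 (2.28) showed endothelial differences of like size, and Irgm1, which controls autophagy of microbes, was higher in endothelial nuclei by 1.04 units (SE 0.22, adjusted p = 0.0016, edgeR). Igtp passed in none of the 5 classes, with 0.47 units in endothelial nuclei, and its locus overlaps Irgm2.

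In the group around Parp9, whose protein works with the ubiquitin ligase Dtx3l, the members differed. Parp14 was higher in endothelial (1.59 log2, adjusted p = 6.9e-05), macrophage (1.63, adjusted p = 8.6e-04), stellate (1.45, adjusted p = 9.1e-05) and T/NK nuclei (1.04, adjusted p = 2.9e-04; edgeR). Dtx3l was lower than in hepatocytes in endothelial (-0.48, adjusted p = 0.027) and stellate nuclei (-0.70, adjusted p = 0.0023; edgeR). Parp9 did not pass in endothelial, macrophage, stellate or T/NK nuclei. Parp9 and Dtx3l start within one another on opposite strands of chromosome 16, and reads of both may mix if strand was not used in counting.

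Of the other effectors, 8 of 9 tested genes were higher than in hepatocytes in endothelial, 7 of 8 in macrophage and 6 of 9 in stellate nuclei. Epsti1, a gene first described for its response to neighbouring stroma, had 430, 515 and 241 CPM in macrophage nuclei of RD no tumour mice, 53.9 and 241 in the RD tumour mice, and 490, 275 and 430 in the WD tumour mice. Hepatocyte nuclei had 5.32 to 17.9 CPM in 7 mice and 114 CPM in RD tumour 1, so the classes separate in every mouse but RD tumour 1, where hepatocyte nuclei were the higher ones. The macrophage difference was 4.47 log2 units (SE 0.67, adjusted p = 2.1e-04) with all mice and 4.88 (SE 0.31, adjusted p = 9.6e-07) without RD tumour 1, and T/NK nuclei were 4.26 units above hepatocyte nuclei (SE 0.53, adjusted p = 5.3e-05; edgeR). Trim30a, a brake on Toll-like receptor signalling, was higher in macrophage (3.38), endothelial (2.78), stellate (2.25) and T/NK nuclei (2.22). Rtp4, a chaperone of receptors that also limits flaviviruses, was higher in stellate nuclei alone among the 5 classes, by 1.25 units (SE 0.26, adjusted p = 0.0016, edgeR), with a range of 25.9 to 116 CPM there, although it overlaps Masp1 on the opposite strand. Ifi44 led in endothelial nuclei (3.21 units, SE 0.23, adjusted p = 6.3e-06, edgeR), as did Rsad2, which encodes the antiviral enzyme viperin (1.28 units, SE 0.24, adjusted p = 8.0e-04, edgeR). Bst2, which tethers budding viruses to the cell, was higher in endothelial (0.67), stellate (0.70) and macrophage nuclei (0.51).

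By class mean, 12 of the 37 genes were highest in macrophage nuclei, among them Irf7, Irf9, Oas1a, Oas2, Oas3, Parp14, Trim30a and Epsti1. A further 11 were highest in stellate nuclei, including the 4 Ifit genes, Oasl2, Ifih1, Rtp4 and Usp18, and 9 in endothelial nuclei, including Gbp2, Gbp3, Gbp7, Igtp, Irgm1, Ifi44 and Rsad2. T/NK nuclei led for Dtx3l, Ifi47, Isg15 and Samd9l. Hepatocyte nuclei had the lowest class mean for 24 of the 37. Set directly against endothelial nuclei, macrophage nuclei had 8 of 32 tested genes higher and 5 lower (18.5% and 16.9% of all genes), and stellate nuclei 8 of 30 higher and 7 lower (14.8% and 16%).

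The widest difference between mice was that of a single tumour-free mouse. RD no tumour 1 had the highest whole-library CPM of the 8 mice for 30 of the 37 genes, against 10.8% of all 19860 genes counted. It was above both of its group mates for 36 of the 37 (46.5% of all genes), with a median difference of 1.53 log2 units from them where the median of all genes was 0.16. Dtx3l was the exception. In whole libraries, more cells of a responding type and more RNA per cell cannot be told apart. RD no tumour 3, with the same diet and also tumour-free, was the lowest of the 8 mice for 24 of the 37 (22.1% of all genes). The other 7 highest values fell on RD tumour 1 (4), WD tumour 2 (2) and RD no tumour 3 (1).

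**Figure D3:**
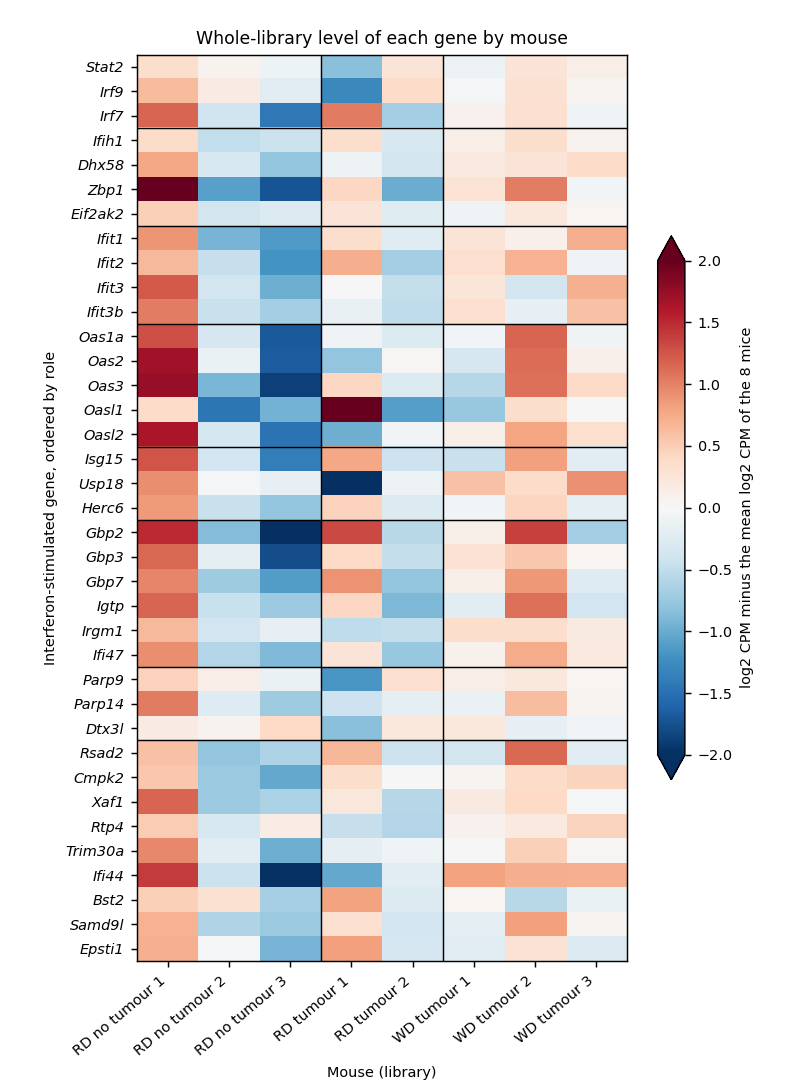
Whole-library level of each of the 37 genes (rows, ordered by role) in each mouse (columns), as log2 CPM minus the mean log2 CPM of the 8 mice; red is above and blue below that mean, and the scale stops at 2 units either way. The column of RD no tumour 1 is red in every row, RD no tumour 3 is mostly blue, and RD tumour 1 has single strong rows such as Oasl1 and Usp18.

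The same mouse was high within cell classes. In stellate nuclei RD no tumour 1 had the highest level for 31 of 35 genes counted (8.09% of all genes), in endothelial nuclei for 26 of 35 (8.50%), in macrophage nuclei for 23 of 35 (12.7%) and in T/NK nuclei for 12 of 28 (7.07%). In hepatocyte nuclei it was the highest for 7 of 37 (8.04%) and RD tumour 1 for 15 (39.9%). RD no tumour 1 still exceeded both mates there for 36 of 37 (42.1% of all genes), with a median difference of 1.24 log2 units. In stellate nuclei it exceeded both mates for 35 of 35 (35.9% of all genes), with a median difference of 1.55 units (all genes 0.01). Within stellate nuclei of this mouse, macrophage markers summed to 683 CPM against 384 and 223 in its mates and neutrophil markers to 507 against 34.6 and 13.1. Cholangiocyte markers summed to 1435 CPM there against 650 and 577, and hepatocyte markers to 10638 against 29645 and 27139. Its whole library likewise had less of the hepatocyte markers, with 14681 CPM against 30527 and 28740. The part of these markers in the result was not tested. In stellate nuclei of RD tumour 1, macrophage markers summed to 2527, neutrophil markers to 2200, cholangiocyte markers to 216 and hepatocyte markers to 12737 CPM. This mouse had the highest level there for 2 of the 35 genes, against 31.8% of all genes. The part of the markers in this mouse was not tested either.

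**Figure D4:**
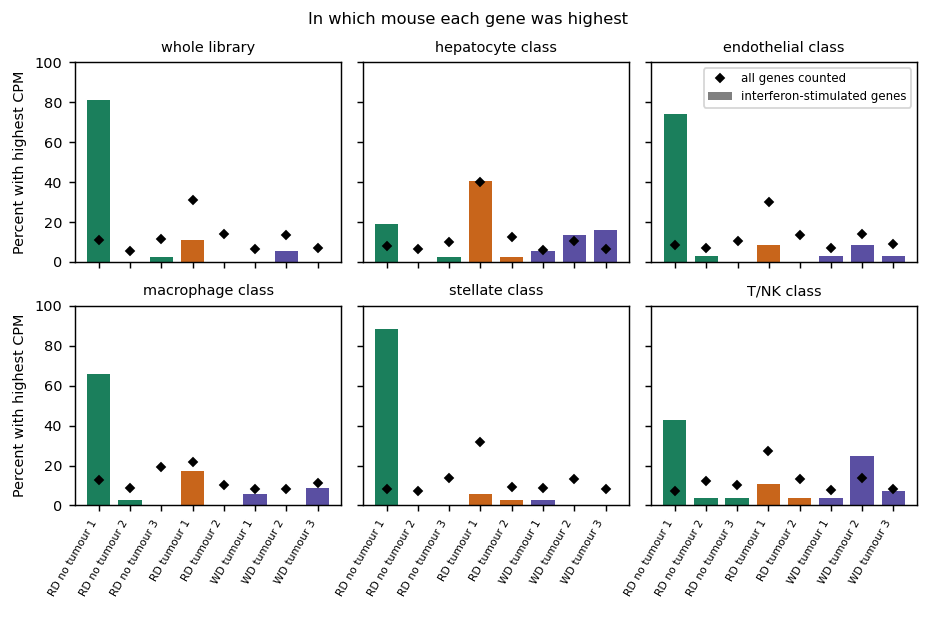
Percent of interferon-stimulated genes (bars, coloured by group) and of all genes counted (diamonds) whose CPM was highest in each mouse, for whole libraries and 5 cell classes. RD no tumour 1 reaches 81.1% in whole libraries and 88.6% in stellate nuclei, far above its diamonds, while RD tumour 1 is at 40.5% of the genes in hepatocyte nuclei, level with its 39.9% of all genes.

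Each role group took part. Relative to the mean of both mates, the whole-library CPM of RD no tumour 1 was higher by a median of 5.21-fold for the 5 Oas genes (range 2.90 to 8.34), 3.51-fold for the 6 GTPases (1.90 to 7.36), 3.31-fold for the 4 Ifit genes (2.71 to 3.77), 2.72-fold for the Isg15 pathway (2.04 to 4.14), 2.56-fold for the 9 other effectors (1.49 to 5.30) and 2.12-fold for the 4 sensors (1.74 to 11.5). The Parp9 group had a median of 1.37-fold (0.95 to 2.85) and the transcription factors 1.57-fold (1.29 to 3.97). These ratios describe 1 mouse and have no replicate check.

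Zbp1 had the widest of these ratios. Its whole-library levels were 25.6, 2.74 and 1.74 CPM in the tumour-free mice, 7.71 and 2.90 in the RD tumour mice, and 6.96, 11.8 and 5.57 in the WD tumour mice. Oas2 had 30.4, 8.69 and 2.98 CPM in the tumour-free mice, 5.47 and 9.70 in the RD tumour mice, and 7.52, 20.6 and 10.2 in the WD tumour mice. In both genes RD no tumour 1 was the highest mouse, WD tumour 2 the second and RD no tumour 3 the lowest. Gbp7 had 44.4, 13.7 and 10.4 CPM in the tumour-free mice, 42.1 and 13.04 in the RD tumour mice, and 24.5, 41.1 and 18.9 in the WD tumour mice, so that 3 mice of 3 different groups lay close together at the top. Those 3 mice are also the ones with the highest macrophage marker sums. WD tumour 2 exceeded both of its mates for 27 of the 37 genes, against 47.4% of all genes.

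Not every gene varied this way. Stat2 was 160, 131 and 117 CPM in the tumour-free mice, 69.8 and 149 in the RD tumour mice, and 115, 149 and 137 in the WD tumour mice, so 7 mice lay within 115 to 160 and RD tumour 1 below them. Irf9 was 55.1, 39.6 and 30.7 CPM, then 14.5 and 45.7, then 34.9, 43.9 and 36.8 in the same order of groups, again lowest in RD tumour 1. Parp9 showed the same low value, with 30.6 CPM in RD tumour 1 and 62.6 to 94.1 in the other mice, and so did Dtx3l, with 23.5 CPM against 37.5 to 55.2. Eif2ak2 ranged only from 28.4 to 50.6 CPM and Ifih1 from 29.0 to 52.3 over the 8 mice.

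RD tumour 1 also carried the most extreme single values of the list. Oasl1, an Oas-like protein without enzyme activity that restrains Irf7 translation, was 180 CPM there and 5.74 to 20.04 CPM in the other 7 mice. It was high in each class of that mouse, with 188 CPM in hepatocyte, 129 in endothelial, 146 in macrophage, 179 in stellate and 244 in T/NK nuclei, where the other mice did not exceed 45.7. Usp18 was 2.68 CPM in RD tumour 1 and 13.5 to 28.8 CPM in the others, again in each of these classes, with 0 to 4.79 CPM against at least 8.82. The classes of RD tumour 1 were weakly separated, so these values need not be separate readings of each cell type. Against its own hepatocyte class, the median hepatocyte marker differed by 0.75 log2 in macrophage, 0.21 in stellate, -0.08 in endothelial and -0.36 in T/NK nuclei. In the other 7 mice these differences were -0.80 to -0.03. How much RNA the classes of RD tumour 1 share was not tested. Among the pathway genes outside the list, Irf2 was 38.7 CPM in this mouse against 297 to 358, and Mavs was 6.55 CPM against 40.2 to 78.4. Both are given because they were seen to stand apart.

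The question that the groups pose is whether the interferon response differs with tumour or diet, and no difference between groups passed the test. In edgeR's quasi-likelihood test of whole libraries (19087 genes, Benjamini-Hochberg adjustment, threshold 0.05), 0 of 37 genes were called in WD tumour against RD no tumour, in RD tumour against RD no tumour and in WD tumour against RD tumour, and percent of all genes called was 0 in each. At an unadjusted p under 0.05 there were 0, 2 and 4 of the 37 (2.75%, 6.70% and 7.56% of all genes). DESeq2 called 38, 75 and 121 genes in these comparisons (0.204%, 0.362% and 0.616%) and also 0 of the 37. The comparisons share mice, so they are not independent of one another. Each library is a separate mouse.

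The 37 genes summed to 1551, 830 and 669 CPM in the tumour-free mice, to 1119 and 850 in the RD tumour mice, and to 933, 1212 and 960 in the WD tumour mice. The group means were 1017 ± 469 (SD, n = 3), 984 ± 190 (SD, n = 2) and 1035 ± 154 (SD, n = 3), and the RD no tumour group spans the values of both others. Median log2 fold changes of the 37 genes were 0.05 for WD tumour against RD no tumour (22 of 37 higher), -0.30 for RD tumour against RD no tumour (14 of 37 higher) and 0.32 for WD tumour against RD tumour (30 of 37 higher), with medians of all genes between -0.01 and 0.00. Without RD no tumour 1 the first 2 medians became 0.82 (35 of 37 higher) and 0.42 (30 of 37 higher), so the second changed sign, and still 0 of the 37 were called. Leaving out RD tumour 1 instead gave -0.59 for the second (4 of 37 higher) and 0.79 for the last (33 of 37 higher), with 11 and 0 genes called and none of the list.

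**Figure D5:**
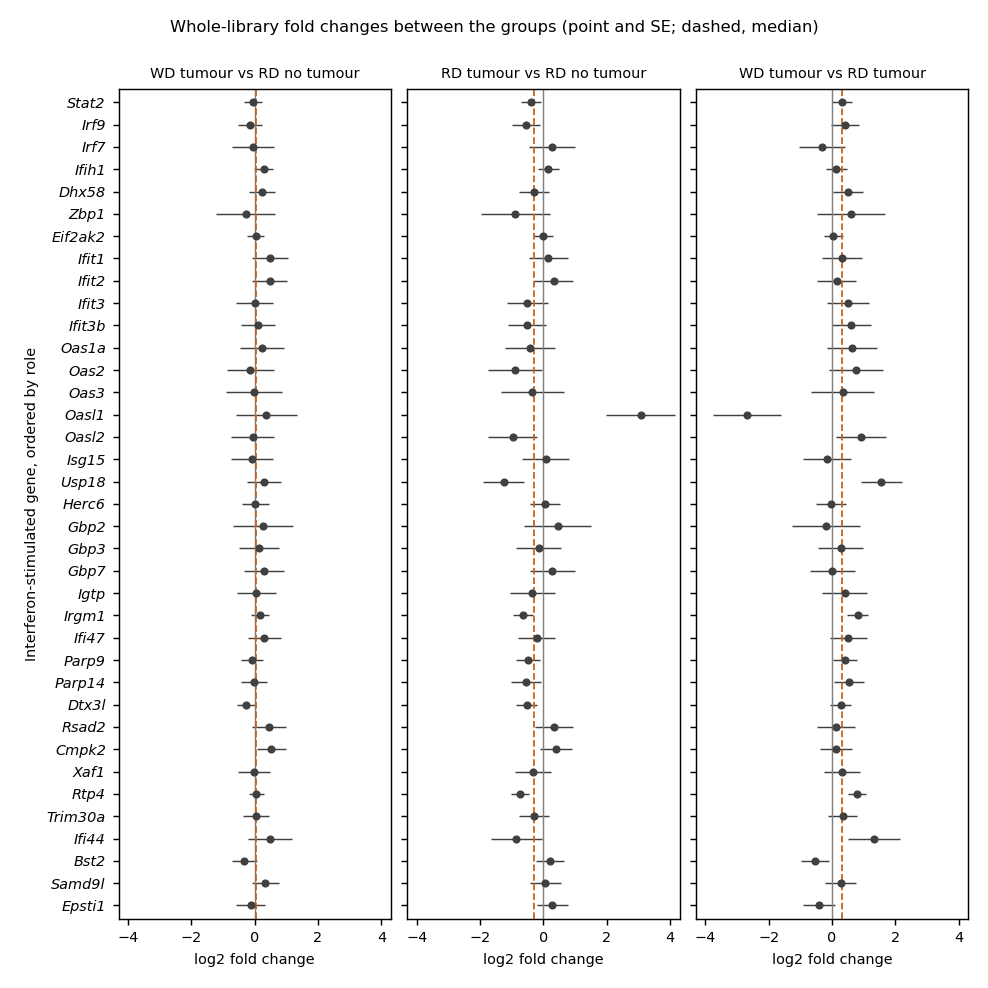
Log2 fold change of each gene between groups (points, with the standard error as a bar) from edgeR on whole libraries, for the 3 comparisons, with a dashed line at the median of the 37 genes. The medians lie at 0.05, -0.30 and 0.32, none of the points passed an adjusted p of 0.05, and Oasl1 and Usp18 lie farthest out in the comparisons that contain RD tumour 1.

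In WD tumour against RD no tumour the largest rises were Cmpk2, a mitochondrial nucleotide kinase (0.52 log2, SE 0.46), Ifi44 (0.49, SE 0.70) and Ifit1 (0.47, SE 0.56), and the largest falls Bst2 (-0.33, SE 0.40), Zbp1 (-0.29, SE 0.94) and Dtx3l (-0.26, SE 0.30). The adjusted p of each in edgeR was 1.00. Cmpk2 was 3.74, 1.55 and 1.27 CPM in the tumour-free mice and 2.67, 3.33 and 3.497 in the WD tumour mice. Ifi44 was 13.5, 3.80 and 1.30 CPM against 8.91, 8.49 and 8.38, so the 3 Western diet mice were nearly alike while the tumour-free mice spanned them. Ifit1 was 7.17, 2.03 and 1.77 CPM against 4.62, 4.18 and 6.42. No gene of the list had all WD tumour mice above or all below all RD no tumour mice (6.86% and 3.83% of all genes did).

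In RD tumour against RD no tumour Oasl1 (3.07 log2, SE 1.08, adjusted p = 0.61, edgeR), Gbp2 (0.45, SE 1.05) and Cmpk2 (0.41, SE 0.50) had the largest rises, and Usp18 (-1.26, SE 0.64), Oasl2 (-0.97, SE 0.78) and Oas2 (-0.91, SE 0.85) the largest falls. The Oasl1 and Usp18 values are those of RD tumour 1: RD tumour 2 had 7.27 CPM of Oasl1 and 14.1 CPM of Usp18, inside the range of the tumour-free mice. Without RD tumour 1 the difference was -0.72 log2 for Oasl1 (SE 0.71) and -0.53 for Usp18 (SE 0.45), so that of Oasl1 changed sign, and the adjusted p of each was 1.00 (edgeR). With RD tumour 1 as the lone mouse of its group, assumed to vary like the others, edgeR called Oasl1 (3.999), Usp18 (-2.83), Irf9 (-1.54), Parp9 (-1.36), Dtx3l (-1.09) and Stat2 (-0.98), 6 of the 37 (16.2%), and 4569 of all 19873 genes (23%). In the fit of the 8 mice 2 genes had both RD tumour mice below all RD no tumour mice (5.95% of all genes did), namely Irgm1 with 11.4 and 11.7 CPM against 25.5, 12.4 and 14.4, and Rtp4 with 24.2 and 22.2 against 47.7, 26.8 and 37.2. Rtp4 fell short of the threshold (-0.74 log2, SE 0.29, adjusted p = 0.61, edgeR).

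In WD tumour against RD tumour, which compares tumour-bearing mice of different diets, Usp18 (1.55 log2, SE 0.65), Ifi44 (1.34, SE 0.82) and Oasl2 (0.92, SE 0.78) had the largest rises and Oasl1 (-2.70, SE 1.07), Bst2 (-0.55, SE 0.44) and Epsti1 (-0.42, SE 0.49) the largest falls. The lowest adjusted p among the 37 genes was 0.59 (edgeR), which Oasl1, Usp18, Irgm1 and Rtp4 shared. For 8 of the 37 genes all WD tumour mice lay above both RD tumour mice (10.3% of all genes), and these were Ifi44, Oasl2, Usp18, Trim30a, Irgm1, Dhx58, Rtp4 and Parp14. Ifi44 was 8.91, 8.49 and 8.38 CPM against 2.53 and 4.45, Irgm1 was 20.6, 20.7 and 18.4 against 11.4 and 11.7, and Rtp4 was 35.3, 38.4 and 45.3 against 24.2 and 22.2. With RD tumour 1 as the lone RD tumour mouse 5 of the 37 were called (Oasl1, Usp18, Irf9, Parp9 and Stat2), which is 13.5% beside 22.3% of all genes (4438). Without RD tumour 1 none of the 37 was, and Oasl1 was 1.09 log2 units higher (SE 0.73) and Usp18 0.82 higher (SE 0.46) with an adjusted p of 1.00 for each (edgeR).

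Within cell classes, 0 of the tested genes were called by edgeR in any of 15 comparisons, 3 in each of the hepatocyte, endothelial, macrophage, stellate and T/NK classes, and percent of all genes called was 0 too. At an unadjusted p under 0.05, edgeR counts are given in the order WD tumour to tumour-free, RD tumour to tumour-free and WD tumour to RD tumour. Hepatocyte nuclei had 2, 4 and 5 of 37 genes (3.31%, 13.9% and 10.9% of all genes), endothelial nuclei 0, 3 and 0 of 34 (1.83%, 5.9% and 6.18%) and macrophage nuclei 0, 0 and 2 of 35 (2.2%, 9.13% and 8.97%). Stellate nuclei had 0, 3 and 3 of 33 (2.66%, 5.77% and 6.69%) and T/NK nuclei 1, 3 and 3 of 21 (1.94%, 6.42% and 4.41%). At this threshold the whole list thus had at most 5 genes in any comparison.

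DESeq2 called genes of the list in hepatocyte nuclei and in no other class. All genes called there were 0.275%, 3.84% and 1.27% in the same order. In the other classes DESeq2 called 0.0271%, 0.0135% and 0.123% of endothelial, 0.00924%, 0.0185% and 0.459% of macrophage, 0.0957%, 0.0228% and 0.208% of stellate and 0%, 0.00495% and 0.00989% of T/NK genes. In hepatocyte nuclei DESeq2 called 3 of 37 in RD tumour against RD no tumour, namely Epsti1 (2.71 log2, adjusted p = 0.014), Oasl1 (3.24, adjusted p = 0.038) and Rtp4 (-1.19, adjusted p = 0.048). It also called Rtp4 in WD tumour against RD tumour (1.34, adjusted p = 0.041). Epsti1 in hepatocyte nuclei was 114 and 17.9 CPM in the RD tumour mice and 13.6, 5.32 and 7.09 in the tumour-free mice, so the size of this difference rests on RD tumour 1. Macrophage markers in these nuclei summed to 1368 and 276 CPM in the RD tumour mice against 331, 157 and 118 in tumour-free mice, and neutrophil markers to 1138 and 45.5 against 197, 15.3 and 13, and their part was not tested. In edgeR, Epsti1 differed by 2.65 log2 units with all mice and by 0.91 without RD tumour 1 (SE 0.50, adjusted p = 1.00), and Oasl1 by -0.50 without it (SE 0.58, adjusted p = 1.00). DESeq2 was not run without that mouse. Rtp4 there was 20.9 and 14.1 CPM in the RD tumour mice, 42.7, 23.0 and 37.7 in the tumour-free mice, and 31.9, 41.2 and 45.8 in the WD tumour mice, without overlap between RD tumour and either other group. Both RD tumour mice were below all tumour-free mice for 7.42% of all genes in this class (1 of 37 of the list). All WD tumour mice were above both RD tumour mice for 10.1% (7 of 37). Without RD tumour 1, Rtp4 differed from the tumour-free mice by -1.43 log2 units (SE 0.39, adjusted p = 0.56) and the WD tumour mice were above RD tumour 2 by 1.59 units (SE 0.39, adjusted p = 0.65; edgeR). Median UMIs of a hepatocyte nucleus also differed, with 2667 to 4766 in the tumour-free mice, 1110 and 1349 in the RD tumour mice and 1098 to 2790 in the WD tumour mice.

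The class medians also moved when RD no tumour 1 was left out, and their sign turned in some classes. In WD tumour against RD no tumour, 30 of 37 genes were higher in hepatocyte nuclei (median 0.42 log2), but 12 of 34 in endothelial (-0.17), 5 of 33 in stellate (-0.24) and 9 of 21 in T/NK nuclei (-0.09). In macrophage nuclei 23 of 35 were higher (0.06). Without RD no tumour 1 they were 34 of 37 (0.94) in hepatocyte, 29 of 32 (0.59) in endothelial, 28 of 32 (0.58) in stellate, 12 of 17 (0.24) in T/NK and 32 of 33 (0.45) in macrophage nuclei. The median thus turned positive in endothelial, stellate and T/NK nuclei and kept its sign in the others. In RD tumour against RD no tumour, 23 of 37 were higher in hepatocyte nuclei (0.20), and the median was 0.91 without RD no tumour 1 (30 of 37 higher) and -0.21 without RD tumour 1 (11 of 37 higher). In the same comparison 8 of 35 were higher in macrophage (-0.61) and 3 of 21 in T/NK nuclei (-0.55), with -0.32 and -0.36 when RD no tumour 1 was left out. Endothelial nuclei had 4 of 34 higher (-0.76) and stellate nuclei 2 of 33 (-0.72), and without RD no tumour 1 the medians were 0.04 and 0.10. In WD tumour against RD tumour, 23 of 37 were higher in hepatocyte nuclei (0.19), or 30 of 37 (0.79) without RD tumour 1. In the other classes 29 of 34 were higher in endothelial (0.56), 27 of 35 in macrophage (0.66), 30 of 33 in stellate (0.48) and 19 of 21 in T/NK nuclei (0.68). Without RD tumour 1 the medians of these 4 classes were 0.52, 0.60, 0.32 and 0.93. Ifih1 and Trim30a in macrophage nuclei show the last comparison gene by gene: Ifih1 was 69.0, 70.9 and 76.6 CPM in the WD tumour mice and only 23.1 and 49.4 in the RD tumour mice, and Trim30a was 255, 191 and 283 against 27.0 and 158. In the macrophage class, 10 of 35 genes had all WD tumour mice above both RD tumour mice, against 15.5% of all genes. The same held for 9 of 35 in endothelial (8.87%), 9 of 35 in stellate (11.2%) and 6 of 28 in T/NK nuclei (9.25%), while in hepatocyte nuclei it was 7 of 37 (10.1%). All WD tumour mice were above all tumour-free mice for 5 of 37 genes in hepatocyte nuclei (7.27%), namely Ifih1, Ifi44, Irgm1, Ifit2 and Ifit3b, and for 0 genes in endothelial (5.87%), macrophage (4.05%), stellate (8.25%) and T/NK nuclei (5.74%).

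The genes that make and carry the interferon signal were present to very different degrees. Of 13 interferon genes in the files, Ifnk, Ifng, Ifnz, Ifna2 and Ifnl2 had any UMI. Ifng had 36 UMIs over all mice (0.08 to 0.27 CPM), and Ifnb1 had none in any library. Ifnk had 1226 UMIs and 1.37 to 9.87 CPM, but it lies inside Mob3b on the opposite strand, and its reads may be those of Mob3b. The 6 receptor genes were all measured, with Ifnar2 at 184, 99.2 and 97.4 CPM in the tumour-free mice, 200 and 115 in the RD tumour mice, and 80.8, 163 and 97.4 in the WD tumour mice, and Ifngr1 at 86.4, 59.8 and 31.6, then 106 and 50.6, then 41.7, 65.3 and 45.4. Both were highest in RD tumour 1 and second in RD no tumour 1. Against hepatocyte nuclei 6 of 6 receptors were higher in macrophage nuclei (Ifngr1 by 2.45 log2, SE 0.33, adjusted p = 1.3e-04, edgeR) and 5 of 6 in both endothelial and stellate nuclei.

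Of 9 kinases and transcription factors outside the list, 7 were higher and 1 lower in endothelial than in hepatocyte nuclei, 7 and 1 in macrophage, 6 and 2 in stellate and 6 and 0 in T/NK nuclei. Jak1, the kinase shared by the interferon receptors, was nearly even over mice, at 250, 268 and 198 CPM, then 244 and 280, then 251, 269 and 271, and it was 2.49 log2 units higher in endothelial than in hepatocyte nuclei (SE 0.26, adjusted p = 2.2e-05, edgeR). Irf2 was 307, 323 and 322 CPM in the tumour-free mice, 38.7 and 303 in the RD tumour mice, and 358, 297 and 351 in the WD tumour mice.

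Among 12 nucleic acid sensing genes tested, 10 were higher and 2 lower in macrophage than in hepatocyte nuclei, and 7 and 3 in endothelial nuclei. Tbk1, the kinase that activates Irf3, was 109, 73.9 and 86.0 CPM in the tumour-free mice, 240 and 85.5 in the RD tumour mice, and 66.4, 99.6 and 73.4 in the WD tumour mice. Samhd1, which depletes nucleotides that viruses need, was 161, 72.8 and 39.2 CPM, then 186 and 69.1, then 57.6, 129 and 59.0. Of the genes that restrain the signal, Pias1 had 283 CPM in RD tumour 1 and 174 to 202 in the others, and Ptpn2 had 77.3 to 110 CPM. Over the 33 pathway genes counted, RD no tumour 1 was the highest mouse for 9 and RD tumour 1 for 13. Of all genes counted, RD no tumour 1 was the highest for 10.8% and RD tumour 1 for 30.9%. In whole libraries 0 of the tested pathway genes were called between groups by edgeR, out of 1 ligand, 6 receptors, 9 kinases and factors, 12 sensing genes and 5 restraint genes.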

How the data were processed

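Nuclei of 8 snap-frozen mouse livers were sequenced as 10x Chromium 3′ v3.1 libraries, per the labels' protocols. The authors deposited unnormalised UMI counts per gene and barcode, made with Cell Ranger 7.0.0 on build mm10, per the submitters' processing notes; the annotation and the use of intronic reads are not given in the sources used here. Barcodes with at least 300 genes were kept. No doublet caller was run: nuclei passing the gate of several classes were left out of the classes. A nucleus joined a class other than hepatocyte with at least 3 of its markers and a marker share at least 3 times the library's mean share. Hepatocyte nuclei needed at least 3 hepatocyte markers, which other nuclei also hold, and no share rule was set for them. They passed no other class, and for no other class did they hold at least 2 markers with a share at or above the library's mean. At least 20 nuclei were needed per class and mouse.

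Counts were summed per mouse, or per class and mouse, and groups were compared over mice with edgeR 4.0.16 (TMM, filterByExpr, quasi-likelihood test, 3 groups in 1 model, Benjamini-Hochberg threshold 0.05); DESeq2 1.42.0 was an alternative. Classes were compared with the mouse as a block. Levels are UMIs scaled to a common total of the library or of the class (CPM). Precision of whole-library levels follows from the 17948627 to 34363108 UMIs per mouse. Class levels rest on far fewer and are less precise. In RD tumour 1, for example, 53 T/NK nuclei held 208717 UMIs and 171 macrophage nuclei held 259668. On simulated whole-library counts of the WD tumour and tumour-free groups (19135 genes), 15% of genes changed 4-fold and 82% of those changed 16-fold were recovered. The genes named are the 2 highest of each role, those past the threshold and the 3 largest rises and falls of each comparison; Irf7, Isg15, Oas1a, Trim30a, Rsad2, Mavs and others outside this rule were chosen after their values were seen. Members and lists were chosen with earlier results of these data known. Gene positions are from GENCODE M21 (GRCm38), promoters from RefSeq (GRCm38.p6). 1 pathway gene is not reported here by name.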

Additional observations from a re-analysis of the deposited data

Results flagged for a closer look

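Trim30a and Epsti1 had group differences of opposite sign in different cell classes, with no overlap between the mice of the groups compared; the difference between classes was not tested. In RD tumour against RD no tumour, Trim30a differed by 1.26 log2 units in hepatocyte and by -1.28 in T/NK nuclei, and Epsti1 by 2.65 and -1.37. In this comparison both RD tumour mice were above all tumour-free mice for 19.1% of all genes in hepatocyte nuclei (4 of 37 of the list) and below them for 7.95% in T/NK nuclei (4 of 28). In WD tumour against RD tumour, Trim30a differed by -0.84 in hepatocyte nuclei, by 0.93 in endothelial, 1.29 in macrophage, 0.74 in stellate and 1.09 in T/NK nuclei. Epsti1 differed by -2.16 in hepatocyte, 1.36 in macrophage and 1.01 in T/NK nuclei. All WD tumour mice were below both RD tumour mice for 17.3% of all genes in hepatocyte nuclei (2 of 37), and above them for 8.87% in endothelial, 15.5% in macrophage, 11.2% in stellate and 9.25% in T/NK nuclei. None of these passed edgeR's adjusted threshold. RD tumour 1 had Epsti1 at 114 CPM in hepatocyte, 120 in endothelial, 53.9 in macrophage, 99.8 in stellate and 125 in T/NK nuclei. Without this mouse, Trim30a in hepatocyte nuclei differed by 0.61 log2 units in RD tumour against RD no tumour. In WD tumour against RD tumour it differed by -0.18. Epsti1 differed by 0.91 and -0.41 in the same order. The part of RD tumour 1 in the values of both genes in the other classes was not tested.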

How the results depend on the processing

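DESeq2 called 38, 75 and 121 genes in whole libraries (in the order WD tumour to tumour-free, RD tumour to tumour-free, WD tumour to RD tumour) where edgeR called 0, and 3 and 1 of the 37 genes in hepatocyte nuclei for the last 2. Without the 3 mice of highest macrophage marker sum, an alternative chosen after seeing the data, 2, 6 and 15 genes were called and the first median was 0.69. Leaving out 1 mouse at a time gave 0 to 0, 0 to 4569 and 0 to 4438 genes, 0 to 6 and 0 to 5 of the 37 for the last 2, and medians of -0.18 to 0.82, -0.59 to 0.42 and 0.02 to 0.79. The upper counts come without RD tumour 2; without RD tumour 1, 11 genes were called in the second. In classes, the same gave 0 to 10 and 0 to 7 (hepatocyte), 0 to 2 and 0 to 2 (endothelial), 0 to 8 and 0 to 7 (macrophage), and 0 to 3 and 0 to 2 (stellate). The upper counts again come without RD tumour 2, where all genes called were 32.2% and 27.5% (hepatocyte), 8.07% and 8.13% (endothelial), 14.1% and 12.7% (macrophage), and 10.03% and 10.2% (stellate); those of the list were 27% and 18.9%, 5.71% and 5.71%, 22.9% and 20%, and 8.57% and 5.71%. Without a low-count filter 1 and 1 of the list were called in T/NK nuclei. The share of all genes called in those fits is not given here, so these counts cannot be set against it. The cause was not tested. Of all values under alternatives, 337 stayed near the main value and 26 moved. A count stayed if it was equal or of similar size. A median stayed if it shifted by no more than the pooled SD between mice (0.62 log2 units). A median that stayed can thus still have changed sign.

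Replicate numbers are shared between groups but mark no common animal or batch in the labels. Correlations of same-numbered mice ranged from -0.53 to 0.44. With the replicate number as a block 0 genes were called, with medians of 0.31, -0.36 and 0.63 for the 37 genes. Genes with few UMIs, such as Ifng, allow no comparison between groups of whole libraries at this depth.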
